A study of Mus musculus with 8 samples.

Results

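The myeloid cytokine receptor genes examined here are Csf2rb, Csf2rb2, Csf3r, Il3ra, Il5ra, Il6ra, Il6st, Lifr and Osmr. Open chromatin regions belonged to them when the region's centre had a member gene as its nearest gene extent, within 100 kb, which gave 71 of the 160978 regions compared. Chromatin accessibility had been measured by ATAC-seq, where a transposase inserts sequencing tags into open DNA, in 8 libraries of cKit+ Lymph- Ery- cells from mouse bone marrow, sorted to enrich stem and progenitor cells. Of these, 4 are labelled as acute myeloid leukemia (AML), all heterozygous for a deletion of URE, the upstream regulatory element of the PU.1 gene Spi1, with 2 that are also Tet2+/- and 2 that are Tet2-/-. The 4 normal libraries come from a wild-type mouse, a URE-delta/+ mouse, a Tet2+/- mouse and a Tet2-/- mouse, 1 library of each genotype, from animals described as matched for age. How the Tet2 alleles were disrupted, the ages and any pooling of mice remain not given in the sources used here. By the labels, AML libraries were in lanes 6 and 7, as were the wild-type and URE-delta/+ normal libraries, while lane 8 held only the 2 normal libraries with Tet2 loss. Each region has a single log2 fold change, leukemic over non-leukemic under low PU.1, and an adjusted p-value, both made by the authors. They do not list the libraries compared, and since a single normal library has the URE deletion, the non-leukemic side may be that library alone. The combination of the URE deletion with Tet2 loss was present in every AML library and in no normal one, so effects of leukemia and of this combination cannot be told apart. If the non-leukemic side is the URE-delta/+ library alone, Tet2 loss by itself cannot be told apart from leukemia either. Each fold and adjusted p would then rest on 1 library on that side.

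These receptors carry the signals of the growth factors and cytokines of myeloid cells, and all of them act through JAK kinases and STAT factors. Most work as a pair: a chain that binds a given ligand joins a signalling chain that several ligands share. Csf2rb, the common beta chain, serves IL-3, IL-5 and GM-CSF, and Il6st, which encodes gp130, serves the IL-6 family, in which Lifr and Osmr are further signalling chains. Il3ra, Il5ra and Il6ra encode the ligand-binding chains for IL-3, IL-5 and IL-6. Csf3r, the G-CSF receptor of neutrophil production, pairs with itself, and Csf2rb2 is a beta chain of the mouse that serves IL-3 alone. Csf2rb, Il6st, Lifr and Osmr are taken below as the 4 shared chains and the others as the 5 specific chains.

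The regions over gene starts were present at every member with a listed start, and the sequences of 5 of these promoters are shown because their regions span the range of change at starts, from Osmr at the top to Il5ra at the bottom, and include Lifr, the gene whose regions fell. RefSeq promoter windows (GRCm38.p6, 250 bases before to 50 after the gene start) matched 8 of the 9 members and gave 9 windows, since Lifr has 2. Csf2rb was not matched. The 250 bases before the start are printed 5′ to 3′ on the gene's strand, and capitals mark matches to the motifs searched, on either strand.
Osmr (chr15:6874314-6874563, minus strand): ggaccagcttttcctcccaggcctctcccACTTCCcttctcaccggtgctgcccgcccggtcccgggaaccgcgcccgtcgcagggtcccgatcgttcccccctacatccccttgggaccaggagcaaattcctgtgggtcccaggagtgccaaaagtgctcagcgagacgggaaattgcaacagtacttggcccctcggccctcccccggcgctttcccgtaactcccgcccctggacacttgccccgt
Il3ra (chr14:14346245-14346494, plus strand): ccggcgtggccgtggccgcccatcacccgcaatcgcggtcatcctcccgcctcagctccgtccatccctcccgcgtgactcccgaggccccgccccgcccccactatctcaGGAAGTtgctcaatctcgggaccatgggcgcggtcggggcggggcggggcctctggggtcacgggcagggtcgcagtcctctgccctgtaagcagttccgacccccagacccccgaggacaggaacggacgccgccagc
Lifr (chr15:7129322-7129571, plus strand): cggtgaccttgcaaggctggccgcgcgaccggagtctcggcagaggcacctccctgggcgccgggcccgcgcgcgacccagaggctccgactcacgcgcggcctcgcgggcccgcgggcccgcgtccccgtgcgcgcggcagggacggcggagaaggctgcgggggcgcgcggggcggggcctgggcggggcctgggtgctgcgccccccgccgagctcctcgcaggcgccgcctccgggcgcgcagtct
Csf2rb2 (chr15:78305722-78305971, minus strand): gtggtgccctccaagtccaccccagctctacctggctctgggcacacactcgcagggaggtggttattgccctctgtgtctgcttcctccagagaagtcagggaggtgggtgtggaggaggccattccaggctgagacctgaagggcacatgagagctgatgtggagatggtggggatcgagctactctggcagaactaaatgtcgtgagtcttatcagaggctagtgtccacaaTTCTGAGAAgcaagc
Il5ra (chr6:106749038-106749287, minus strand): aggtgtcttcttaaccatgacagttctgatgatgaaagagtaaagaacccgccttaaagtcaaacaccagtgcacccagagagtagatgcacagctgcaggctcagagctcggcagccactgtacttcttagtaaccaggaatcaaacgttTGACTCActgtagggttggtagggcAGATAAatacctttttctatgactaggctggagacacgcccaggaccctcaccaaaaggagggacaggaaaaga
Both strands were searched for 8 motifs. For ETS factors, PU.1 among them, the core was GGAAGT. A longer form that contains this core was GAGGAAGT. For CEBP factors the letters were TTGCGCAA and, containing it, TTGCGCAAT. RUNX factors were represented by TGTGGT. The letters for GATA factors were AGATAA. For STAT factors the letters were TTCNNNGAA. AP-1 was represented by TGANTCA. The ETS core was found in the windows of Osmr, Il3ra, Il6ra and Csf2rb2, 4 of 9, against 23.8% of 32851 windows of all genes. In Csf2rb2 that match is part of the longer form, which 3.20% of all windows held, and it lies past the start and is not printed. The STAT letters were found in Csf2rb2 (8.30% of all windows) and the GATA letters in Il5ra and Il6ra (11.2%). The AP-1 letters were found in Il5ra and, past the start, in Osmr (7.81%). The shorter and longer CEBP letters and the RUNX letters were in 0 of the 9 windows, against 0.183%, 0.0487% and 16.8% of all windows. Neither Lifr window, nor those of Csf3r and Il6st, held any of the 8 motifs. A match is a description of letters and not a measured binding site.

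Lifr was the one member whose accessibility changed at the threshold of the authors' sets, an adjusted p under 0.001, and the change was a loss. Of the 12 regions at Lifr, 4 fell and 0 rose. The other 8 genes had 0 regions that rose or fell among 59. Over all members 0 of 71 regions rose, against 1.24% of all regions in the table, and 4 fell, which is 5.63% against 1.22%. These shares are not matched for read level. Of the 71, 17 were among the 32196 regions of highest read level, of which 5.26% fell, and so were 3 of the 4 that fell. The median log2 fold change was -0.15 over the 71 regions, -0.01 over the 59 without Lifr and 0.02 over all regions. At an adjusted p under 0.01, 4 member regions lay above 0 (5.63%, against 3.68% of all regions) and 7 below (9.86%, against 4.30%). Without Lifr the counts at 0.01 were 4 above (6.78%) and 3 below (5.08%). At 0.05 the counts were 6 above (8.45% of the members' regions, against 7.98%) and 10 below (14.1%, against 9.21%). Without Lifr both counts at 0.05 were 6 of 59 (10.2%), close to those shares. The authors' unchanged set, with an adjusted p over 0.9, held 12 of the 71. At 0.0001, which 0.387% of all regions passed upward and 0.252% downward, 1 Lifr region was left.

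**Figure D1:**
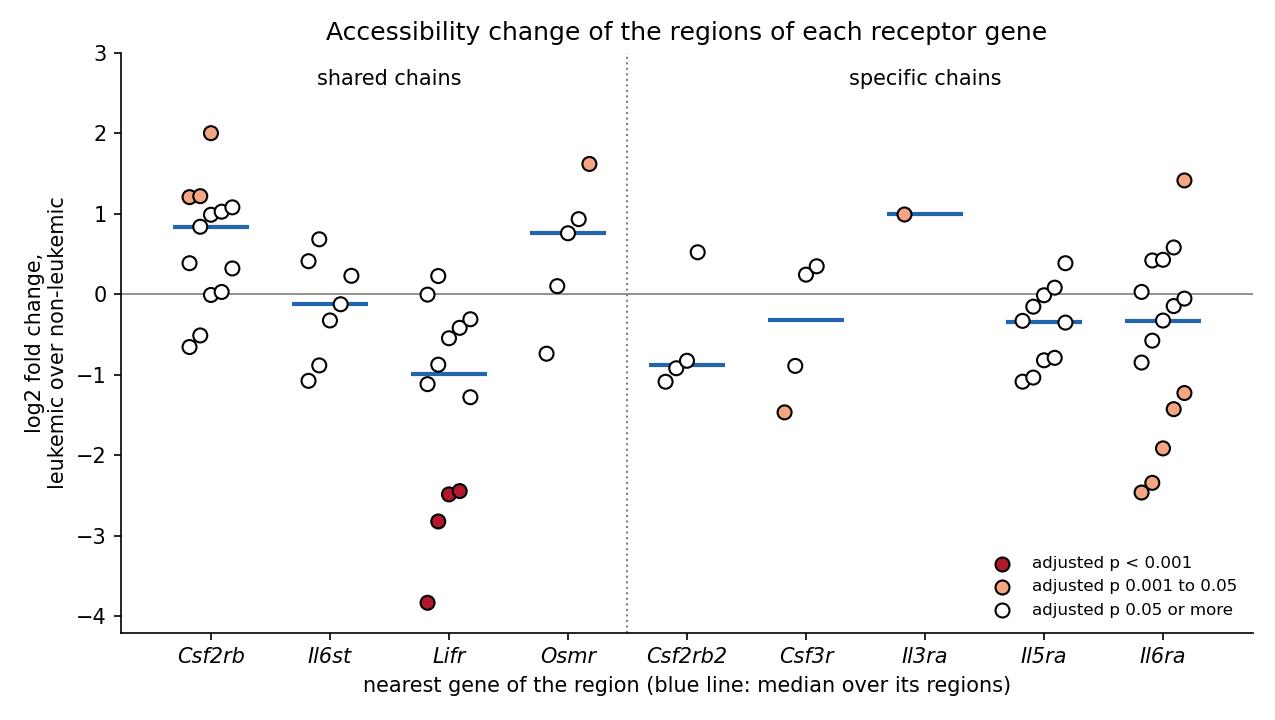
Log2 fold change (leukemic over non-leukemic, vertical axis) of each of the 71 regions by nearest gene, with shared chains to the left of the dotted line; each point is 1 region, filled by its adjusted p, and blue lines are medians over a gene's regions. The 4 dark points, all at Lifr, lie between -3.83 and -2.44, while the Csf2rb and Osmr medians lie above 0.

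The shared chains went different ways from each other. Medians over the regions were 0.84 at Csf2rb, 0.76 at Osmr, -0.12 at Il6st and -0.99 at Lifr. Together the 37 regions of the shared chains had a median of -0.0017, with 4 that fell, and without Lifr 25 had a median of 0.39 and 0 that fell. The 34 regions of the specific chains had a median of -0.34 and 0 that rose or fell. By gene these medians were 0.99 at Il3ra, which has a single region, -0.32 at Csf3r, -0.32 at Il6ra, -0.34 at Il5ra and -0.87 at Csf2rb2. With protein-coding genes alone the order turned, with medians of -0.32 for the shared and -0.14 for the specific chains, and the Csf3r median turned to 0.28. In regions at or above the median abundance, the medians were -0.89 at Csf3r, -1.03 at Il6ra and -1.06 at Il5ra. The Il5ra value then rests on its start region and chr6:106725630-106726372 alone. A median of all regions under this abundance limit is not given here. Regions of a gene share their libraries and their neighbourhood and are not replicates, and the grouping into shared and specific chains was not tested.

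**Figure D2:**
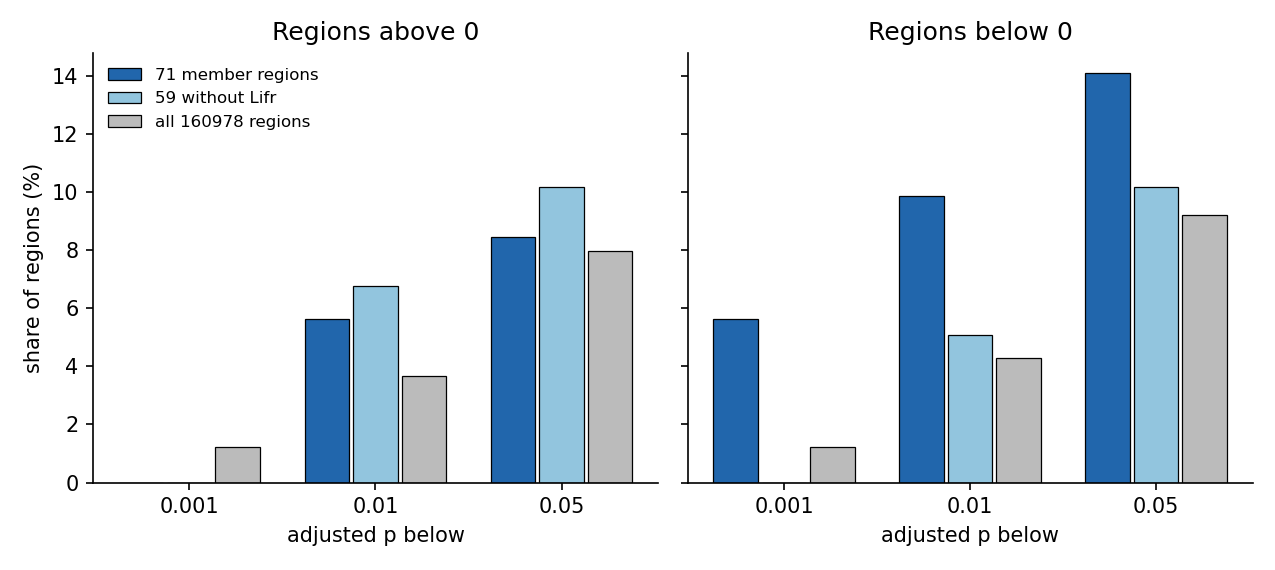
Share of regions (%, vertical axis) that lay above 0 (left) or below 0 (right) at 3 limits on the adjusted p, for all members, for the members without Lifr and for the full table. At 0.001 the members' bar is 0 on the left and 5.63% on the right, and without Lifr it is 0 on both sides.

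Lifr encodes the receptor chain for leukemia inhibitory factor, which signals with gp130. Its extent (GRCm38, chromosome 15, 7090610 to 7197489) spans 107 kb, and its first listed start lies at 7129572, 39.0 kb inside the extent. The 4 regions that fell all lie before that start. The outermost, chr15:7084431-7085419, is intergenic, 5.69 kb outside the Lifr extent and at -44.6 kb from the start, and its log2 fold change was -3.83 (adjusted p = 1.82e-06), a level 14.2 times lower in leukemic cells, per the authors' deposited table. This was the 147th lowest fold of the 160978 regions. The next, chr15:7088802-7089179, also intergenic, stood at -2.44 (adjusted p = 8.65e-04), per the authors' deposited table.

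Inside the Lifr extent, chr15:7092310-7092936 stood at -2.48 (adjusted p = 4.81e-04), per the authors' deposited table. The fourth, chr15:7113558-7114423, at -15.6 kb from the listed start, stood at -2.82 (adjusted p = 2.78e-04), or 7.06 times lower, per the authors' deposited table. These 4 regions are 377 to 988 bp wide, and 3 of them have a log2 abundance of 0.45 or more, as do the 32196 regions of highest read level, of which 5.26% fell. Directly beside the fourth, a region of low read level (log2 abundance -2.66) at 7115045 to 7115968 stood at 0.23 with an adjusted p of 1, per the authors' deposited table.

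From the listed Lifr start onward the values were smaller. The region over the start, chr15:7129203-7130188, showed a fold of -0.54 on the log2 scale (adjusted p = 0.508), per the authors' deposited table. The other 6 regions from there on ran from -1.28 to -0.0017, the lowest adjusted p of the 7 being 0.0543, at the region starting at 7132633 (-1.11), per the authors' deposited table. All 7 were below 0, and none passed 0.05. No region covered the second listed start, at 7140542. So the losses that passed the threshold were at the upstream part of the extent and outside it. Lifr is on the plus strand, so the low end of the extent, 7090610, is its 5′ end, although no start is listed there. The regions that fell lie on both sides of this end, with chr15:7088802-7089179 at 1.62 kb outside it. Distances from the start given above are from the first listed start only. The difference between the upstream part and the listed start was not tested.

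**Figure D3:**
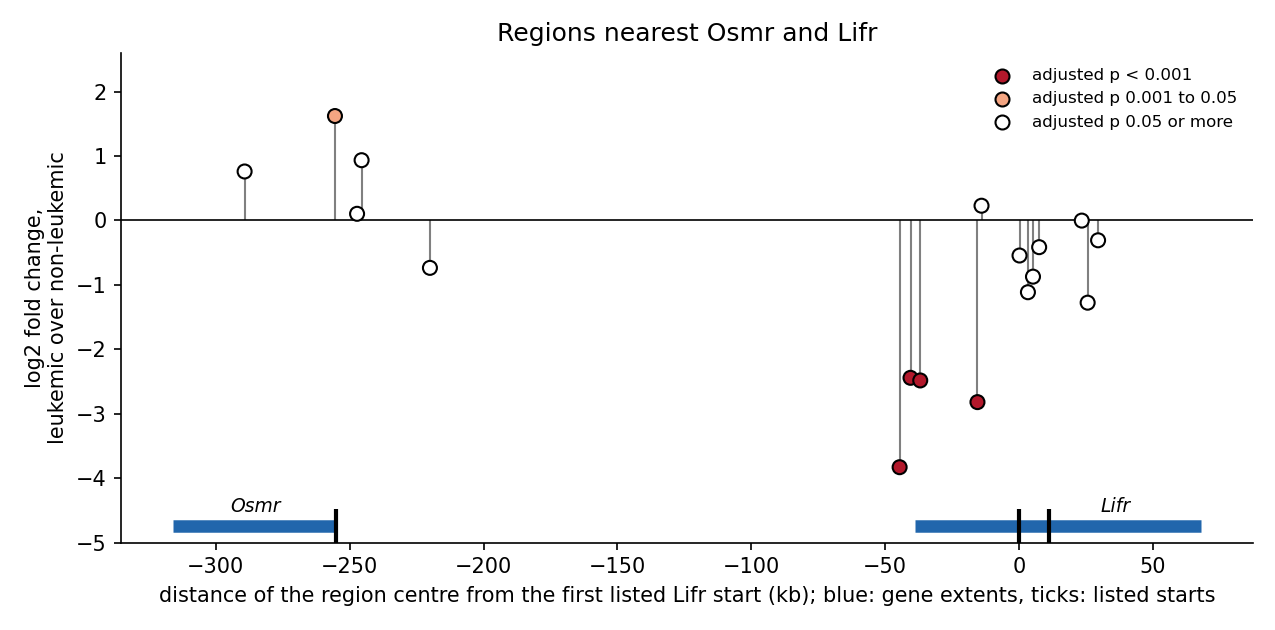
Log2 fold change (vertical axis) of the regions nearest Osmr and Lifr against the distance of each region's centre from the first listed Lifr start in kb; blue bars are gene extents, black ticks listed starts, and points are filled by adjusted p. The 4 dark points lie from -44.6 to -15.6 kb of the Lifr start, at -3.83 to -2.44, and the region over the Osmr start is the highest point, at 1.62.

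Regions around Lifr that belong to other genes were lower as well, but none passed 0.001. Of the 14 others within 200 kb of the extent, 12 were below 0, with a median of -0.58. The lowest of them stood at -1.52, and their lowest adjusted p was 0.0017, per the authors' deposited table. Chromosome 15 as a whole had a median of 0.14. Of the 32184 genes with a region in the full table, 38, Lifr included, had at least as many regions that fell as Lifr, 15 of them on chromosome 2. Of all genes, 4252 had at least 10 regions, and in 4 of them, Lifr included, the share of regions that fell was at least that of Lifr, 33.3%. The other 3 all lie on chromosome 2, which carries Spi1, and a link to Spi1 was not tested. Genes with fewer than 10 regions were left out of this count. Among those left out are Il10ra and Cd34, each with 3 of 7 regions that fell, a larger share than at Lifr. Lifr was picked out after its values were known, so its place in this order is a description.

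Progenitor markers differed among themselves, to be read beside the 1.24% of all regions that rose and 1.22% that fell. Cd34, a surface protein of stem and progenitor cells, had 3 of 7 regions that fell, between -2.89 and -2.48, per the authors' deposited table. Mpo and Elane, genes of the primary granules of neutrophil precursors, had 1 of 4 and 1 of 1 regions that rose, at 2.33 and 1.82, per the authors' deposited table. Kit, the sort marker, had 0 of 16 regions that changed, its most abundant region standing at -0.19 (adjusted p = 0.913), per the authors' deposited table. Cells the sort should remove are marked by Cd79a (B cells), Cd3e (T cells) and Klf1 (erythroid cells), which had 0 of 2, 0 of 7 and 0 of 2 regions that changed. Open regions were present at all 3 of these genes, with log2 abundances of the most abundant region of -0.18 at Cd79a, -0.48 at Cd3e and 4.11 at Klf1, per the authors' deposited table. In bulk libraries, fewer cells of a type and less open chromatin per cell cannot be told apart, and the part of these markers in the Lifr result was not tested.

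Osmr, the oncostatin M receptor chain that joins gp130, lies 216 kb from Lifr on chromosome 15 (6813568 to 6874968) and stood on the other side of 0. Its start region, chr15:6873244-6874934, which covers the promoter printed above, reached a log2 fold change of 1.62 (adjusted p = 0.00982), 3.08 times the non-leukemic level, short of 0.001, per the authors' deposited table. The other 4 Osmr regions ran from -0.74 to 0.94, the lowest adjusted p among them being 0.138, per the authors' deposited table. Their log2 abundances, -1.97 to -1.33, were below the median of -1.17 over all regions. The 12 regions between the Osmr extent and the first Lifr region, of which 3 are Osmr regions, had a median of -0.39, and 0 of them changed. Oncostatin M can signal in the mouse through Osmr with gp130, and Lifr and Osmr are close relatives that lie side by side, so the pair is given here together. No test compared them.

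Il6st, which encodes gp130, had 7 regions on chromosome 13 and 0 that changed. The region over its start, chr13:112463251-112464620, is its most abundant (log2 abundance 3.33) and stood at -0.32 (adjusted p = 0.835), per the authors' deposited table. The other regions ran from -1.07 to 0.69, and the lowest adjusted p was 0.115, at chr13:112510467-112511003, which stood at -0.88, per the authors' deposited table. The 60 kb before the Il6st extent held 9 regions, all below 0, with a median of -1.54. Of these, 4 had an adjusted p under 0.05 (44.4%), where 9.21% of all regions lay below 0 at that limit, and 0 passed 0.001. They are not Il6st regions by the rule used, since other genes such as the noncoding Gm33905 lie nearer. With protein-coding genes alone the Il6st median was -0.59.

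Csf2rb had the largest number of regions above 0 among the members. Its extent on chromosome 15 runs from 78325800 to 78351001. Of 13 regions, 10 were above 0 and 3 below, and 0 passed 0.001. The region with the highest fold, chr15:78347600-78347863, inside the gene, stood at 2.004 (adjusted p = 0.00268), 4.01 times the non-leukemic level, at a low log2 abundance of -1.49, per the authors' deposited table. A second inside the gene, chr15:78340051-78340489, stood at 1.22 (adjusted p = 0.00988), and one 1.096 kb beyond the extent, chr15:78351476-78352719, at 1.21 (adjusted p = 0.0211), per the authors' deposited table.

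Values differed along Csf2rb. The 6 regions before the extent and across its low end ran from -0.65 to 0.84, with a median of 0.01, and 0 of them passed 0.05. Among them the region across the low end of the extent, chr15:78325599-78326392, the most abundant of the gene (log2 abundance 2.74), stood at 0.03 (adjusted p = 0.963), per the authors' deposited table. The 7 regions from inside the extent onward all lay above 0, from 0.32 to 2.004, with a median of 1.08. Values above 0 went on past the gene: the 14 regions of the next 100 kb had a median of 0.79, with 0 that passed 0.001. At an adjusted p under 0.05, 5 lay above 0 (35.7%, against 7.98% of all regions) and 1 below (7.14%, against 9.21%). The split by position was made after the values were seen and was not tested.

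**Figure D4:**
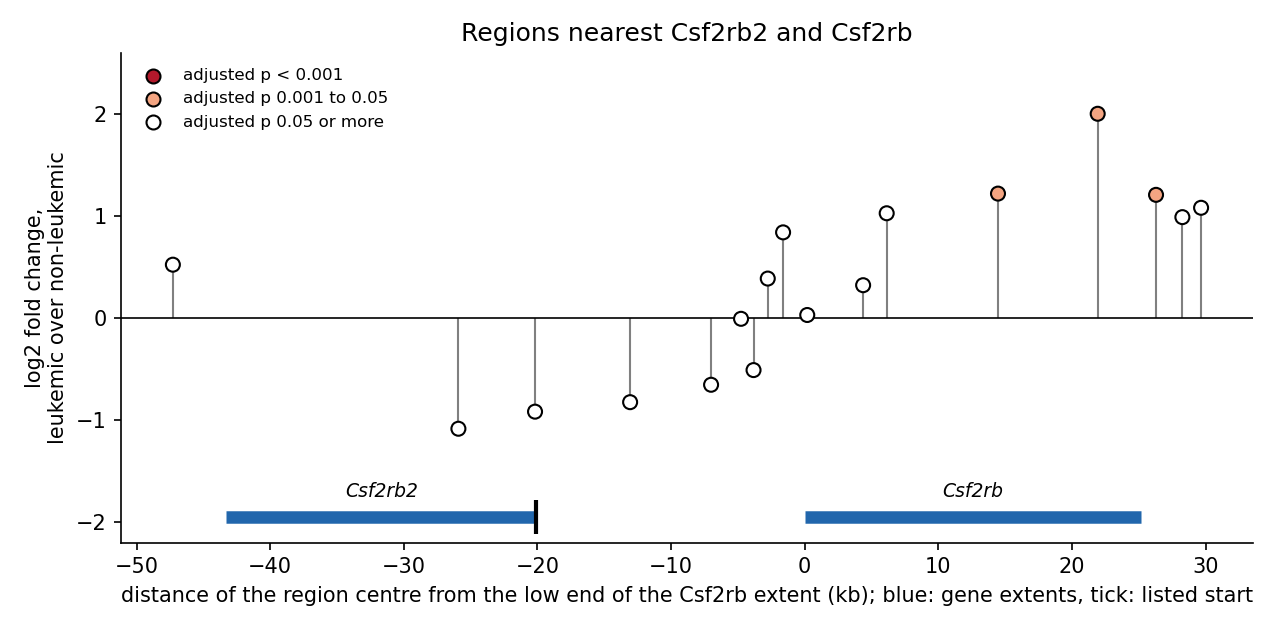
Log2 fold change (vertical axis) of the regions nearest Csf2rb2 and Csf2rb against the distance of each region's centre from the low end of the Csf2rb extent in kb; blue bars are gene extents, the black tick is the listed Csf2rb2 start, and points are filled by adjusted p. Regions of Csf2rb2 and before Csf2rb lie between -1.08 and 0.84, those inside and after Csf2rb between 0.32 and 2.004, and no adjusted p is below 0.001.

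Csf2rb2 lies 20.1 kb from Csf2rb and had 4 regions, 3 of them below 0 and 0 that changed. The start region, chr15:78305227-78306021, stood at -0.92 (adjusted p = 0.147), with the others at -1.08, -0.82 and 0.52, per the authors' deposited table. The lowest adjusted p, 0.0771, was at chr15:78299713-78300065, inside the gene, per the authors' deposited table. Both beta chain genes are near copies of each other, and RefSeq annotates the miR-7676 hairpin inside each of them, on opposite strands. The hairpins are printed because reads from such a stretch fit both genes equally; capitals mark the mature miRNAs.
Mir7676-1 (inside Csf2rb2, chr15:78284788-78284849, minus strand): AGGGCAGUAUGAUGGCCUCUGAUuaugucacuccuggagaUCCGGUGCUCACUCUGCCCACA
Mir7676-2 (inside Csf2rb, chr15:78348599-78348660, plus strand): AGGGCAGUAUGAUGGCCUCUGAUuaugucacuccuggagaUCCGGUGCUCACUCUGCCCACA
The 62 bases have 0 mismatches. The nearest region to the hairpin in Csf2rb is the one with a log2 fold change of 2.004, 0.736 kb away, and no region covers either hairpin. How reads that fit both genes were treated remains not given in the sources used here, so values of Csf2rb and Csf2rb2 are uncertain to that extent. A region's own share of such reads was not measured.

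Il3ra, the IL-3-binding chain (CD123), had a single region, and it is the widest of the whole table. It runs over chr14:14345212-14352428, 7216 bp against a median of 334 bp over all regions, and covers the start and most of the 9.58 kb gene. Its log2 fold change was 0.99 (adjusted p = 0.00506), 1.99 times the non-leukemic level, short of the 0.001 threshold, per the authors' deposited table. A merged region of this width has 1 value for several kilobases, and changes within it cannot be read from the table.

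Il6ra, the IL-6-binding chain on chromosome 3 (89869324 to 89913196), had the most regions, 15, with 5 above and 10 below 0 and 0 that passed 0.001. At 0.05 there were 5 below (33.3%, against 9.21% of all regions) and 1 above (6.67%, against 7.98%). The region over its start, chr3:89912171-89913549, is the most abundant of all member regions (log2 abundance 4.35) and stood at -0.14 with an adjusted p of 1, per the authors' deposited table. The region with the lowest adjusted p, chr3:89911082-89911596, 1.86 kb into the gene, stood at -1.22 (adjusted p = 0.00354), per the authors' deposited table. Toward the far end of the gene, chr3:89869010-89869936 stood at -2.46 (adjusted p = 0.009998), chr3:89876224-89876777 at -2.34 (adjusted p = 0.0130) and chr3:89887512-89887942 at -1.91 (adjusted p = 0.00492), per the authors' deposited table. Between these and the start, chr3:89905129-89906555 stood at 1.42 (adjusted p = 0.0166), per the authors' deposited table. Thus Il6ra held values on both sides of 0 within 1 gene, with its start region near 0. Of the 15 regions, 5 also lie inside Gm46811, a long noncoding RNA gene within the Il6ra extent, and their median was -0.85.

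**Figure D5:**
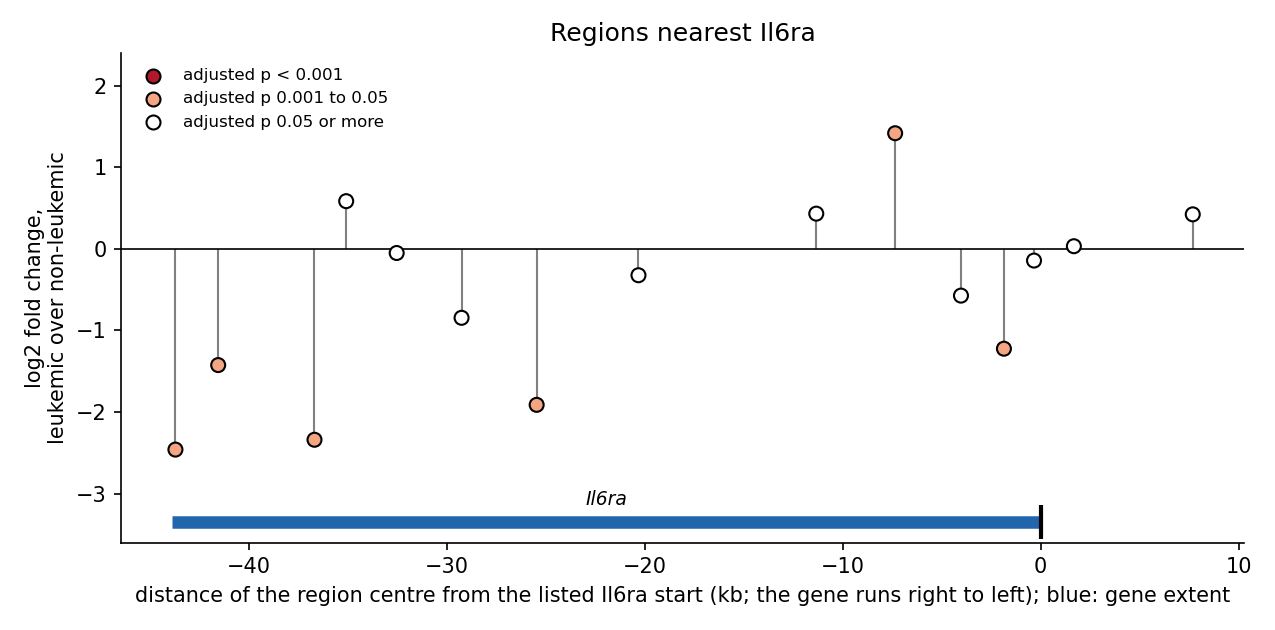
Log2 fold change (vertical axis) of the regions nearest Il6ra against the distance of each region's centre from the listed Il6ra start in kb; the gene runs from right to left, the blue bar is its extent and points are filled by adjusted p. The 5 regions below 0 and the 1 above 0 with an adjusted p under 0.05 are shaded, from -2.46 to 1.42.

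Csf3r and Il5ra, with 4 and 10 regions, had 1 region between them with an adjusted p under 0.05. Of all regions, 9.21% lay below 0 and 7.98% above at that limit. Csf3r had 4 regions in the first kilobases of the gene. The region over the start, chr4:126024343-126025177, the most abundant (log2 abundance 0.69), stood at 0.25 (adjusted p = 0.993), per the authors' deposited table. The lowest adjusted p, 0.0169, was at chr4:126030723-126031000, 6.20 kb past the start, which stood at -1.46, with the remaining pair at -0.89 and 0.35, per the authors' deposited table. Il5ra, the IL-5-binding chain of eosinophils, had 10 regions, of which 8 were below 0. Their median log2 abundance over the 10 was -1.77, against -1.17 over all regions, and the highest was -0.31. The 10 folds ran from -1.08 to 0.39. The lowest adjusted p, 0.108, was at chr6:106725630-106726372, the most abundant region and the one with the lowest fold, per the authors' deposited table. The region over the Il5ra start, chr6:106748829-106750656, stood at -1.03 (adjusted p = 0.234), per the authors' deposited table.

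Across the 8 members with a listed start, a region covered at least 1 promoter window of each, while 51.1% of the windows of all genes were covered. That share is counted per window and not per gene, and the second Lifr window was not covered. Start regions ran in the order Osmr (1.62), Il3ra (0.99), Csf3r (0.25), Il6ra (-0.14), Il6st (-0.32), Lifr (-0.54), Csf2rb2 (-0.92) and Il5ra (-1.03) by log2 fold change, per the authors' deposited table. None of the 8 rose or fell, where 0.908% of the 12991 regions over promoter windows in the table rose and 1.96% fell. Their median was -0.23, against 0.19 for those 12991. With no values per library, no spread is known by which neighbours in this order could be told apart.

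Of the genes that act with these receptors, Socs2 alone had a region past 0.001. The ligand genes had 0 of 27 regions that changed, with regions at 9 of 11 genes (Il3 and Csf3 had none). The other receptor chains, Csf2ra, Il11ra1, Cntfr, Il27ra and Il31ra, had 0 of 19. Jak1, Jak2 and Tyk2 had 0 of 42 with a median of -0.57. Of the 42, 30 were at Jak1 (median -0.61), 7 at Jak2 (median 0.07) and 5 at Tyk2 (median -0.21). The STAT genes had 0 of 41 with a median of -0.01. Among 8 inhibitor genes with 64 regions, 1 rose: Socs2, which encodes a suppressor of cytokine signalling, had a region inside the gene, chr10:95385790-95386152, at 2.61 (adjusted p = 3.27e-04), per the authors' deposited table. In all, 1 of 193 regions of these 31 genes rose (0.518%) and 0 fell, below the shares of the full table given above. At 0.05 the counts were 18 above and 16 below, 9.33% and 8.29%, near the 7.98% and 9.21% of all regions.

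Of 12 further receptor genes of blood cells, 2 had changed regions. Il10ra, the IL-10-binding chain, had 3 of 7 regions that fell, chr9:45272271-45272532 at -2.58, chr9:45274089-45275368 at -2.73 and chr9:45280964-45281239 at -3.10, per the authors' deposited table. All 3 lie outside the gene, 3.25 to 12.0 kb away. Ifngr1, an interferon gamma receptor chain, had 2 of 20 regions that rose, at 3.05 and 2.38, per the authors' deposited table. In the list as a whole 2 of 88 regions rose (2.27%, against 1.24% of all regions) and 3 fell (3.41%, against 1.22%), so Lifr was not alone among blood cell receptor genes in having several regions that fell. Csf1r, Epor, Il2rg, Il4ra, Il7r, Il10rb, Ifngr2, Ifnar1 and Ifnar2 had 0 changed regions at 0.001. At 0.05, 11 of the 88 lay above 0 (12.5%, against 7.98%) and 21 below (23.9%, against 9.21%). The regions below 0 included 4 of 8 at Csf1r, the receptor of macrophage colony-stimulating factor, whose median was -1.10, and 3 of 8 at Il10rb.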

How the data were processed

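Per the submitters' processing notes, the build was GRCm38 (mm10) and the tools included Genrich 0.6, SAMtools 1.10.2 and Bowtie2 2.4.1. The deposited table's title names csaw, which compares read counts in windows. Its settings, normalization, read filters and any shift for the transposase cut remain not given in the sources used here. Used as the authors made them were the deposited log2 fold change, the deposited log2 average abundance (a reading from the column's place and range) and the deposited p-value and adjusted p-value per region. The adjusted p-value equals a Benjamini-Hochberg adjustment over all 160978 regions to within 2.39e-15, and the authors' sets of changed regions equal an adjusted p under 0.001.

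Gene extents came from RefSeq (GRCm38.p6, 49997 genes), and 158996 regions had a gene within 100 kb. A region inside several extents counted for each. Regions and promoter windows were compared with Python 3.11.15, numpy 2.4.6 and pandas 2.3.3; assignment and motif search were tested on simulated data. Promoter strand was checked on 1683 overlapping window pairs of opposite strand, of which 1683 matched. Coordinates keep the deposited form, with the base (0 or 1) of starts not given in the sources used here. No values per library were used, so depth and spread between mice are unknown and no test of this work's own was made.

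Members and lists were chosen with earlier results of these data known. All members were named, with each region under 0.001 or, failing that, the lowest adjusted p, the most abundant region and the start region; in the pathway lists, genes with a changed region were named with values. Markers, and other listed genes with 0 changed regions, are named with their counts, and Csf1r and Il10rb were given at 0.05 after their values were seen. Alternatives were the threshold, distance limit, gene type, distance from the edge, chromosome centring, an abundance limit and the place of Osmr. The planned protein comparison of Csf2rb and Csf2rb2 was not run. Some genes of the marker and receptor lists are not reported here.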

Additional observations from a re-analysis of the deposited data

How the results depend on the processing

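Leaving out a replicate was not possible, and no paired analysis was possible because the table holds 1 value per region and none per library. Of 101 values under alternatives, 84 stayed within 1.5 times (counts) or 0.25 (log2 medians) of the main value and 17 moved. Some alternatives could hardly move a value. Distance from the edge kept 71 regions and every value the same, and the 20 kb limit kept 70 of the 71. The tally is therefore no measure of how firm the values are. By threshold, an adjusted p under 0.0001 left 1 region below 0, 0.01 gave 4 above and 7 below, and 0.05 gave 6 above and 10 below. With protein-coding genes alone, the medians were 0.28 at Csf3r, which turned above 0, -0.59 at Il6st, -0.71 at Lifr and -0.32 over the shared chains, below the -0.14 over the specific chains. In regions at or above the median abundance, the medians were -0.65 over all members, 0.53 at Csf2rb, -0.89 at Csf3r, -1.06 at Il5ra, -1.03 at Il6ra and 1.62 at Osmr. A median of all regions under this abundance limit is not given here, so these values are not set against the full table. The Osmr value is that of its start region alone, and the Il5ra value rests on its start region and chr6:106725630-106726372 alone. Leaving out Lifr, chosen after the data were seen, left 0 regions that fell among the shared chains, with a median of 0.39. Giving a region inside several extents to the shortest was also added after the data were seen, and moved no value. Depth per library is unknown, which limits every fold. The cause of each shift was not tested.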
